A study of Mus musculus with 2 samples.

Results

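The messages of 10 presynaptic genes were measured in the hippocampus: synaptophysin (Syp), the synapsins (Syn1, Syn2, Syn3), the SV2 glycoproteins (Sv2a, Sv2b, Sv2c), the neuronal synaptogyrins (Syngr1, Syngr3) and the vesicle GTPase Rab3a. They were taken by gene symbol, and all 10 were found among 55536 annotated genes, with 47 annotated transcripts. Total RNA was sequenced from female B6CASTF1/J mice, hybrids of C57BL/6J and CAST/EiJ, at 14 days of age. The data form 1 group of 2 libraries, called biological replicates 1 and 2 in the labels, each listing 3 females and 300 ng of RNA. Both libraries carry 1 donor identifier, and the labels do not say when the listed animals were pooled. The labels name the source a layer of the hippocampus without saying which, and no treatment or second genotype was analysed here. Values are therefore levels and spreads, as mean ± SD (n = 2), with no test between conditions and no p-value.

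Synaptic vesicles store neurotransmitter in the nerve terminal and release it when calcium enters. Synaptophysin and the synaptogyrins are related tetraspan proteins of the vesicle membrane, and SV2 proteins are glycoproteins with the fold of a transporter. Synapsins lie on the outer face of the vesicle, tether vesicles into a reserve cluster and let go when kinases phosphorylate them. Rab3a binds the vesicle in its GTP form and links it to active zone proteins of the RIM family and to rabphilin.

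Several of these genes make a long and a short protein from alternative 3′ exons or splice sites, and the sequences below, from the GENCODE M21 transcripts on mm10, show where each pair parts. Lower case is the shared coding stretch before they part, and capitals are the bases that come next in each transcript.
Syn1-201: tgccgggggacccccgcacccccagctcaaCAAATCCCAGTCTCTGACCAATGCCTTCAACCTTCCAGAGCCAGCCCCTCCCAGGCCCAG
Syn1-202: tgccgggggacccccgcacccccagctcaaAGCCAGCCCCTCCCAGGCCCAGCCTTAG
Syn2-201: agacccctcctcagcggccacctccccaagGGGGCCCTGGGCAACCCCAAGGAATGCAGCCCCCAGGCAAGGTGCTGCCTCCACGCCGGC
Syn2-202: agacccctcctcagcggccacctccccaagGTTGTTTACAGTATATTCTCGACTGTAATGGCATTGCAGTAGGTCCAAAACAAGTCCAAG
Sv2c-201: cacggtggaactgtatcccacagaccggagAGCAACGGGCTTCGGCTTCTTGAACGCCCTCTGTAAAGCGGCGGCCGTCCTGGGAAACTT
Sv2c-203: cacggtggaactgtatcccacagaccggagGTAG
Syngr1-201: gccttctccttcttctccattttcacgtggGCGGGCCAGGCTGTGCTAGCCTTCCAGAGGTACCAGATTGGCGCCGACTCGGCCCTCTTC
Syngr1-202: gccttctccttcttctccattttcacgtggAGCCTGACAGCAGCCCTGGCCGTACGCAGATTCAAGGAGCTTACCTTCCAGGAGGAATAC
The Syn1 pair (chromosome X, minus strand) encodes 706 and 670 codons, the forms known as synapsin Ia and Ib. The Syn2 pair (chromosome 6, plus strand) encodes 586 and 479 codons, synapsin IIa and IIb. In Sv2c (chromosome 13, minus strand), reading through the splice site after the shared bases ends the frame at 667 codons instead of 727. Syngr1 (chromosome 15, plus strand) ends in 234 or 191 codons.

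Expected counts, estimated reads that need not be whole, summed to 33465393 in replicate 1, and replicate 2 had 32879872. TPM, the authors' length-scaled level relative to all transcripts of a library, comes from a first quantification made from alignments and a second made directly from the reads. The levels below are from the first unless the second is named, and a pair of values gives replicate 1 and then replicate 2 unless stated otherwise. The replicates differed in cell type markers: the 8 listed choroid plexus markers summed to 9.86 TPM in replicate 2 and 1437 in replicate 1, and all 5 fibroblast markers were over 1.2-fold lower in replicate 2 (summed 106.5 TPM there and 168 in replicate 1). None of these markers was at 0 counts in either library. The 7 astrocyte markers had a median log2 ratio, replicate 2 over replicate 1, of 0.23, the 9 GABAergic interneuron markers -0.11, and the 5 microglia markers 0.21. All 7 oligodendrocyte markers were higher in replicate 2 (median 0.091), with Pdgfra over 1.2-fold (0.34). Of 5 endothelial and mural markers, 4 were higher and 1 lower (median 0.030), with Pdgfrb over 1.2-fold higher (0.51). The 10 pyramidal and granule neuron markers went both ways, 5 higher and 5 lower in replicate 2, around a median of -0.037. Of these 10, C1ql2 (0.58), Wfs1 (0.56) and Prox1 (0.36) were over 1.2-fold higher in replicate 2, and Nectin3 (-0.29) was over 1.2-fold lower. Of all 14715 genes passing the filter given below, 21.1% were over 1.2-fold apart, and 12.3% were over 1.2-fold lower in replicate 2. The part of these differences in the values of the vesicle genes was not tested. In bulk tissue, fewer nerve cells and less RNA per cell cannot be told apart.

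Syp was the most abundant of the 10. It had 825 TPM in replicate 1 and 757 in replicate 2 (791 ± 48.4), rank 25 among 22015 nuclear protein-coding genes. Rab3a followed at 351 and 313 TPM (332 ± 27.2), rank 124. Their libraries did not overlap with each other or with any other gene of the set. Syp lies on chromosome X (7638471 to 7653256, plus strand) and Rab3a on chromosome 8 (70754679 to 70758677, plus strand).

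The synapsins split into 2 abundant genes and 1 scarce one. Syn2 (chromosome 6, 115134902 to 115282006) had 291 and 256 TPM (273 ± 24.4). Syn1 (chromosome X, 20860511 to 20921004) had 240 and 223 TPM (232 ± 11.4), both libraries below both of Syn2. Syn3 (chromosome 10, 86055125 to 86498896), the synapsin studied mostly in young neurons, had 11.8 and 12.8 TPM (12.3 ± 0.757), rank 7221. Of the summed synapsin TPM, Syn1 took 44.8% ± 0.824, Syn2 52.8% ± 1.13 and Syn3 2.39% ± 0.308. The ratio of Syn1 over Syn2 was 0.849 ± 0.034, and that of Syn1 over Syn3 was 18.9 ± 2.10. With transcripts annotated as protein-coding only, Syn1 over Syn2 came to 0.930 and 1.03 in the libraries, so that the order of these genes was not the same in both.

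The SV2 family had the same shape, 2 abundant members of similar level and 1 scarce member. Sv2a (chromosome 3, 96181151 to 96195521), the binding site of the antiepileptic drug levetiracetam, had 156 and 147 TPM (151 ± 6.75). Sv2b (chromosome 7, 75114894 to 75309262) had 148 and 124 TPM (136 ± 16.7), and its range overlapped that of Sv2a, the only neighbours in the order of the 10 genes that did so in this quantification. Sv2c (chromosome 13, 95954594 to 96132577), which is best known from the basal ganglia, had 5.50 and 5.17 TPM (5.34 ± 0.233), rank 10030 and the lowest of the set. The ratio of Sv2a over Sv2b was 1.12 ± 0.087 in the first quantification, 1.01 ± 0.122 in the second and 0.962 ± 0.093 over protein-coding transcripts, so its direction turned with the setting. Sv2a over Sv2c was 28.4 ± 0.024. That SD is only the distance between 2 library ratios and leaves out counting error, with 894 and 849 counts of Sv2c. The ratio was 31.1 in the second quantification and 24.3 over protein-coding transcripts.

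Among the tetraspan relatives of Syp, Syngr1 (chromosome 15, 80091334 to 80119501) had 205 and 191 TPM (198 ± 9.998). Syngr3 (chromosome 17, 24685092 to 24689955) had 88.6 and 81.2 TPM (84.9 ± 5.28). The ratio of Syngr1 over Syngr3 was 2.33 ± 0.027 in the first quantification and 3.23 ± 0.086 in the second. Syngr2, the relative found in most tissues, stood at 6.70 and 5.79 TPM, and Syngr4 had 1 count in each library, under the 3 counts taken as the detection limit.

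**Figure D1:**
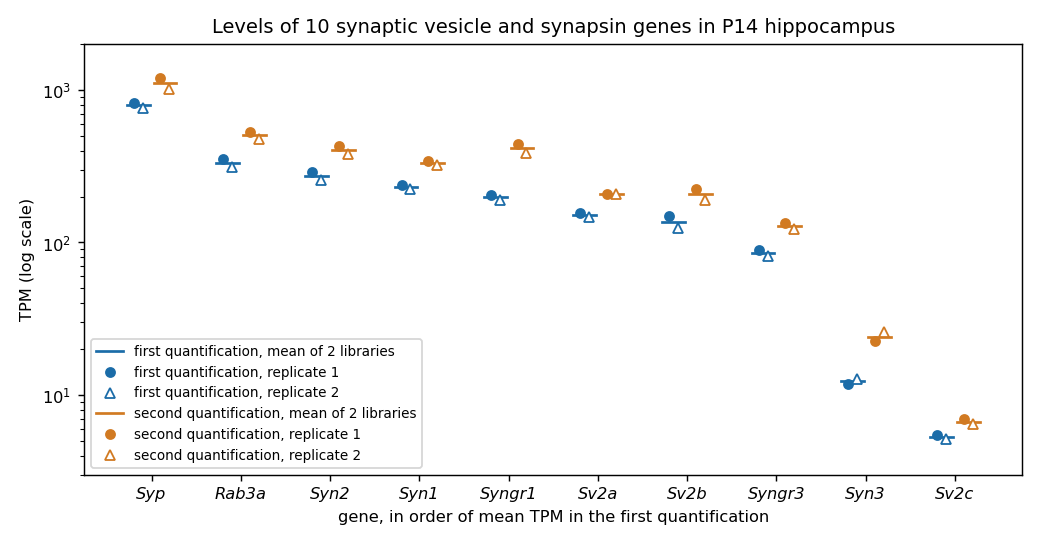
TPM (log scale) of the 10 genes in each library (circles, replicate 1; triangles, replicate 2; lines, mean of 2), first quantification in blue and second in orange. Syp led at 825 and 757 TPM in the first quantification, and Syn3 and Sv2c stayed below 30 TPM in both quantifications.

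All 10 genes had at least 1 TPM in both libraries, as did 58.6% of nuclear protein-coding genes. Their median was 174.6 ± 8.38 TPM, and that of the 14715 genes passing the filter (a mean of at least 1 TPM and 50 summed counts) was 12.9 TPM. Each of the 10 was lower in the first quantification than in the second in both libraries, as were 92.5% of the 15452 genes that averaged at least 1 TPM in the first; the median protein-coding gene was 1.55-fold higher in the second in each library. Syngr1 was the 1 gene of the set whose estimates lay over 2-fold apart in the same direction in each library, where 12.4% of the 15452 genes passed that mark. It had 205 and 191 TPM in the first quantification and 443 and 387 in the second, and it moved ahead of Syn2 and Syn1 there. Its range in the second quantification overlapped that of Syn2, at 431 and 381 TPM. In the first quantification, 5 of the 10 genes (Syp, Syn1, Syn2, Syngr1, Rab3a) had a deposited TPM above the upper bound of the authors' own interval in both libraries, against 2.37% of the 14715 genes. These 5 were the most abundant of the 10, and the share among genes of like abundance was not computed. For Syp that bound was 821 in replicate 1 and 753 in replicate 2, just under its TPM. The confidence level of that interval is not stated in the labels or headers. The transcript values also hold a posterior mean count, a separate estimate from the expected count. Which estimate the bounds surround was not determined, so a TPM above its bound need not mean an error in the level.

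The replicates were close for these genes, as for most genes of high counts. None of the 10 lay over 1.2-fold apart after TMM scaling, where 21.1% of the 14715 genes did. Among the 1186 genes with at least 10000 summed counts, a class that holds 7 of the 10, the share was 7.5%. Sv2b came nearest to the mark. It had 14858 counts in replicate 2 and 17791 in replicate 1, a log2 ratio of -0.16 (95% exact counting interval -0.19 to -0.13). Syn2 followed at -0.10 (-0.13 to -0.077) and Rab3a at -0.074 (-0.12 to -0.033). These 3 intervals did not reach 0. The other 7 did, among them Syp at -0.0033 (-0.025 to 0.019) with 32017 counts in replicate 2 and 34394 in replicate 1, and Syn3 at 0.092 (-0.060 to 0.24) with 713 in replicate 2 and 717 in replicate 1. The intervals cover counting error only and treat reads as independent molecules, which they are not. Variation between animals and error in assigning reads are left out, so an interval that misses 0 is not a test between the libraries.

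Of the 10 genes, 7 were lower in replicate 2, against 50.1% of all genes tested. Of the 7 with at least 10000 summed counts, 6 were lower in replicate 2, against 27.5% of the 1186 genes at that depth, whose median log2 ratio was 0.069. Among these 6, the counting intervals of Syp, Syn1 and Syngr1 reached 0. In the second quantification 5 of the 7 were lower, against 27% of genes at that depth. There, 6 of the 10 were lower, against 49.4% of all genes. With the ERCC spike-ins (synthetic RNAs added to each library) as the scale, 9 of the 10 were lower, against 62.0% of all genes, and the median of all genes moved to -0.052. On that scale all 7 at the higher depth were lower, against 44.3% of the 1186 genes. With deposited TPM and no further scaling all 7 were lower, against 60.4%. The distance from the share at that depth thus depended on the scaling.

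**Figure D2:**
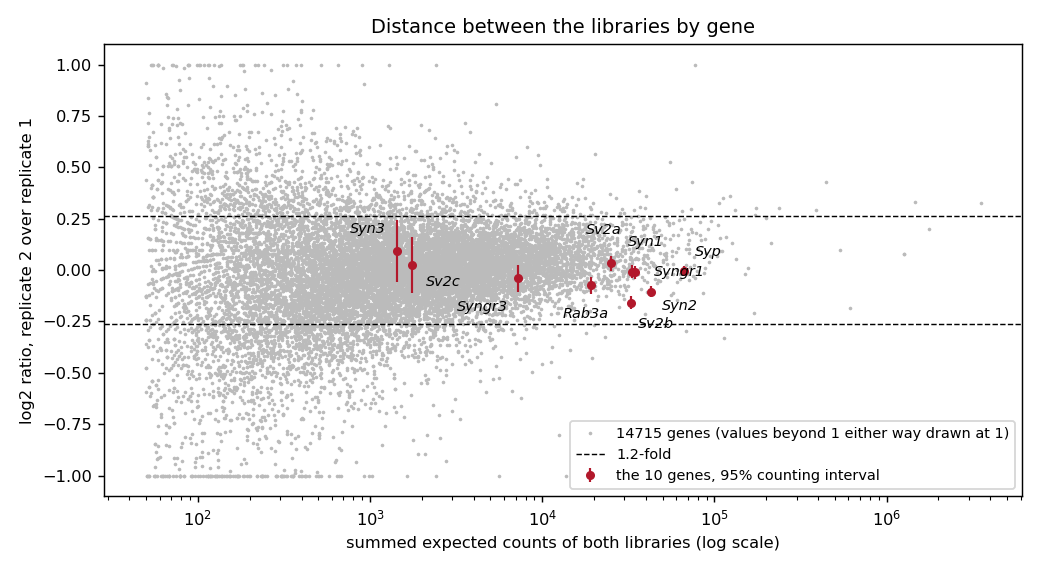
Log2 ratio of replicate 2 over replicate 1 against the summed expected counts of both libraries (log scale) for 14715 genes in grey, with the 10 genes in red and their 95% counting intervals; dashed lines mark 1.2-fold. All 10 red points lie between the lines, Sv2b nearest to the lower one at -0.16.

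The transcript tables divided the same genes into protein forms, and the quantifications did not divide them alike. The leading transcript was the same in both quantifications for 7 of the 10 genes, against 76.1% of 11889 protein-coding genes with at least 2 transcripts and 1 TPM. Transcripts that encode the same protein were then summed, after which the leading form was the same for 9 of the 10, against 83% of the same 11889 genes. Syn1 was the exception.

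For Syn1, the first quantification gave the long form (Syn1-201) 57.5% of the gene's TPM in replicate 1 and 51.7% in replicate 2, and the short form (Syn1-202) 42.5% and 48.3%. The second gave the long form 32.8% and 28.2%, and the short form 67.2% and 71.8%. Within each quantification the libraries lay closer to each other than to the other quantification. Only 68 of the 31-base words of Syn1-201 and 120 of those of Syn1-202 are found in that transcript alone, so few positions tell these transcripts apart. They also differ at their ends: the annotated first exons start at 0 and at 0.086 kb from the 5′ end of the gene. Some of these words therefore mark the transcript ends and not the coding split. Their part in the shares of the long and short form was not tested.

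For Syn2, the short form (Syn2-202 and Syn2-203 together) led in both quantifications. It took 73.9% and 69.3% of TPM in the first and 58.1% and 55.9% in the second. The long form took 14.8% and 15.5% in the first and 14.3% and 14.8% in the second, the closest match between quantifications among the long and short forms plotted. Syn2-202 and Syn2-203 have no 31-base word of their own: the first quantification assigned all of the short form to Syn2-203 and the second nearly all of it to Syn2-202, so only their sum can be read.

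A further Syn2 transcript, Syn2-206, is annotated as non-coding and starts inside the gene, 104.1 kb downstream of the outermost start (mm10 chromosome 6, 115238994), at the base where RefSeq places a second start of Syn2. It held 10.3% and 14.1% of the gene's TPM in the first quantification (2169 and 2595 counts) and 24.4% and 25.6% in the second. The junctions that tell it from the full-length message are shown next, with the last bases of the exon that differs in capitals and the shared exon (115239359 onward) in lower case.
Syn2-202: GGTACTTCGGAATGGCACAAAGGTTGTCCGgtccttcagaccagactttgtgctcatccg
Syn2-206: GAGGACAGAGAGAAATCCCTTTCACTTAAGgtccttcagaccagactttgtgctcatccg
Syn2-206 has 111 words of its own.

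Syn3 RNA was mostly Syn3-201, the 579-codon protein, at 80.3% and 90.4% of TPM in the first quantification and 58.4% and 60.5% in the second. In the second, Syn3-205, a 566-base non-coding transcript, held 17.5% and 19.1%, and Syn3-204, which retains an intron, 10.2% and 13.0%; the first listed both at 0 TPM. These shares rested on 15.9 and 19.4 counts for Syn3-205 and 44.9 and 65.0 for Syn3-204. Syn3-203, a transcript with a retained intron, had 135 expected counts in replicate 1 and 48.5 in replicate 2, or 10.7% and 3.59% of TPM, in the first quantification. Of its 4775 bases, 1733 (36.3%) lie over exons of Timp3 on the opposite strand.

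Sv2c was carried by the 727-codon form at 72.5% and 74.8% of TPM in the first quantification and 87.2% and 89.8% in the second. The 667-codon form held 27.5% and 23.1% in the first and 12.8% and 10.2% in the second, on 72.3 and 56.9 counts in the first. By share of counts it was smaller, 8.09% and 6.70% in the first, with a transcript of 2197 bases against 9101 for the long form. Sv2a was mainly Sv2a-201, the 742-codon form, at 83.5% and 85.7% of TPM in the first quantification and 92.5% and 88.6% in the second. The remainder fell mostly on a 432-base non-coding transcript, Sv2a-203, with 1.22% and 1.09% of the counts.

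The complete coding transcripts of Sv2b, and likewise those of Rab3a, differ only outside the coding sequence. The 3 complete Sv2b transcripts encode 1 protein of 683 codons, which held 98.4% of TPM in both libraries in the first quantification and 98.8% and 99.2% in the second. Sv2b-201 and Sv2b-202 shared it nearly equally in the first (47.7% and 48.2% for Sv2b-201, 50.3% and 49.7% for Sv2b-202). In the second Sv2b-202 held 70.5% and 73.4%, and Sv2b-204 held 26.9% and 25.7%. For Rab3a, 4 transcripts encode the same 220 codons and held 99.2% of TPM in both libraries in the first quantification and 99.4% and 99.3% in the second. Rab3a-201 led at 78.1% and 77.0% in the first, and in the second it held 14.2% and 18.7%, behind Rab3a-202 at 41.0% and 34.5% and Rab3a-203 at 26.7% and 30.6%. Rab3a-204 held 16.8% and 19.1% in the first and 17.5% and 15.6% in the second.

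**Figure D3:**
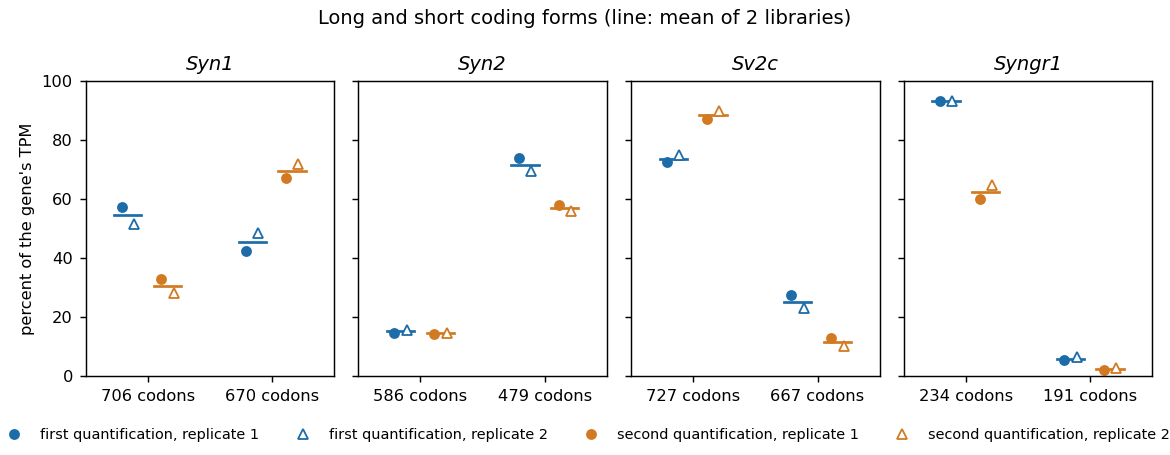
Percent of the gene's TPM in the long (left) and short (right) coding form of 4 genes, in each library (circles, replicate 1; triangles, replicate 2; lines, mean of 2) and quantification (blue, first; orange, second). The Syn1 forms change order between quantifications, 57.5% and 51.7% against 32.8% and 28.2% for the long form, while the order is kept in Syn2, Sv2c and Syngr1.

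Short annotated fragments took larger shares of TPM than of counts, and this touched the level of Syp. Syp-201, which encodes the 314-codon protein, held 68.8% and 70.7% of the gene's TPM in the first quantification and 94.1% and 94.6% of its counts. Syp-206, a 433-base non-coding transcript that starts in the first intron, held 29.7% and 27.5% of TPM on 5.44% and 4.93% of the counts (1871 and 1577). The second quantification listed Syp-206 at 0 and gave 24.97% and 16.4% of TPM to Syp-202, a 494-base incomplete transcript that the first had at 0 and 0.119%. Over protein-coding transcripts, Syp stood at 568 and 535 TPM, still the highest of the 10. The junctions of Syp-201 and Syp-206 with the exon they share (chromosome X, 7639858 onward) are given next, with the exon that differs in capitals.
Syp-201: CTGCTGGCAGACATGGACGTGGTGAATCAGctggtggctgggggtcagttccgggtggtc
Syp-206: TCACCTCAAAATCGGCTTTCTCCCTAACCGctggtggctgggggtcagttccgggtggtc
Syp-206 has 57 words of its own.

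The same held for Syngr1, the gene that differed most between quantifications. Syngr1-201 had 98.8% of the counts in both libraries in the first quantification and 96.7% and 97.3% in the second. Its share of TPM was 93.2% in both libraries in the first and 59.9% and 64.8% in the second, where the incomplete transcripts Syngr1-203 and Syngr1-204, of 576 and 479 bases, together took 38.1% and 32.4% of TPM on 2.90% and 2.16% of the counts. The Syngr1-201 level itself was 191 and 178 TPM in the first quantification and 266 and 251 in the second. The short form, Syngr1-202, held 5.49% and 6.31% in the first and 1.96% and 2.87% in the second. Syngr3-201, the 229-codon form, led Syngr3 at 100% and 94.6% in the first and 58.9% and 68.0% in the second. The second quantification gave 41.1% and 32.0% of TPM to Syngr3-202, a 1836-base non-coding transcript that had 0% and 5.41% in the first.

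**Figure D4:**
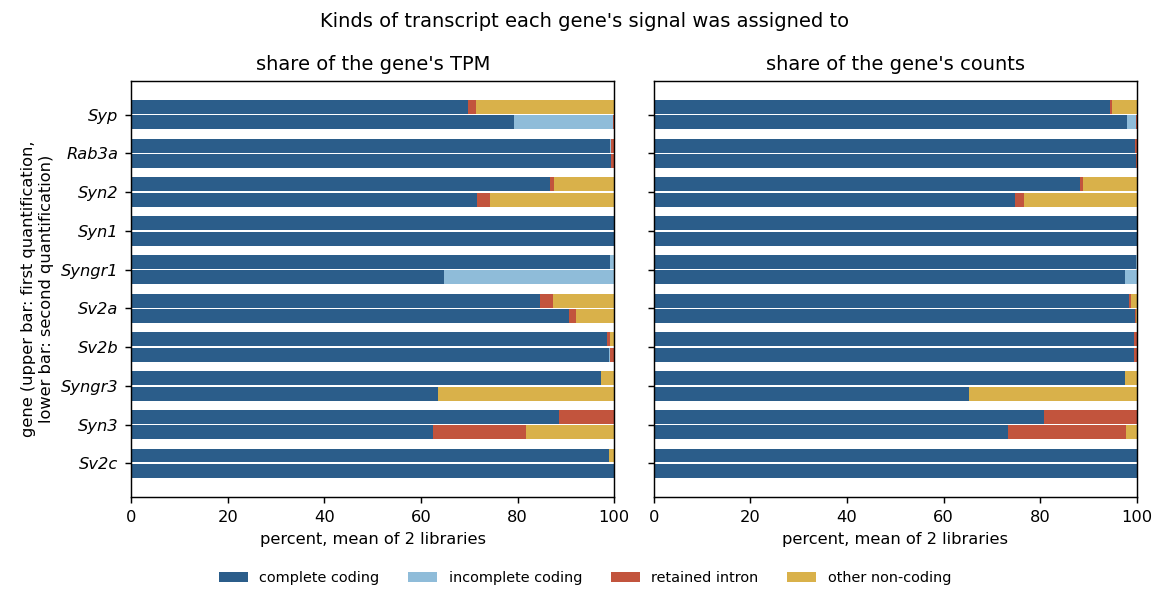
Share of each gene's TPM (left) and counts (right) by kind of annotated transcript, mean of 2 libraries, with the first quantification above the second for each gene. Complete coding transcripts took 94.1% and 94.6% of Syp counts in the first quantification but 68.8% and 70.7% of its TPM, and Syngr1 shows the same in the second.

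Each synapsin gene carries a gene of the Timp family, inhibitors of matrix metalloproteinases, on the opposite strand within its span. Timp1 inside Syn1 (chromosome X, 20870166 to 20874735) had 3 and 2 counts, at or under the detection limit, beside 17165 and 15926 counts of Syn1. Timp4 inside Syn2 (chromosome 6, 115241892 to 115252205) was at 15.4 TPM in replicate 2 and at 11.0 TPM in replicate 1, with a log2 ratio of 0.39 against -0.10 for Syn2. Timp3 inside Syn3 (chromosome 10, 86300372 to 86349506) had 27.0 and 22.6 TPM, above the 11.8 and 12.8 TPM of Syn3 in both libraries. No Timp1 exon overlaps a Syn1 exon, 90 exonic bases are shared by Timp4 and Syn2 transcripts, and 1733 by Timp3 and Syn3. The notes do not state whether counting used strand, so reads over those shared bases cannot be told apart. Syp shares 875 exonic bases with an antisense gene, Gm14703, which had 12 and 8 counts.

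**Figure D5:**
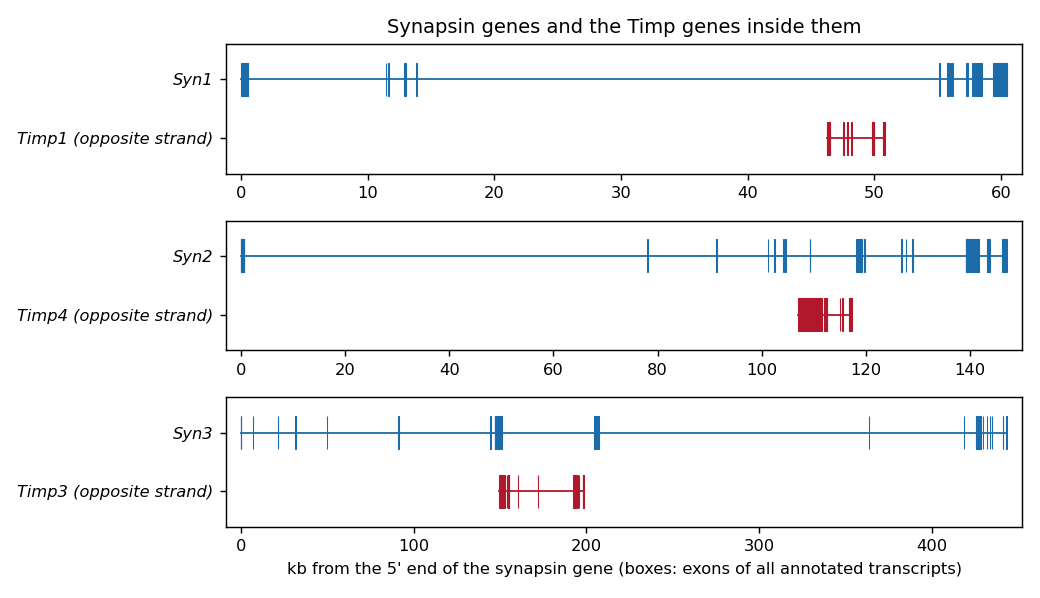
Exons (boxes) of the 3 synapsin genes in blue and of the Timp genes on the opposite strand in red, in kb from the 5′ end of each synapsin gene. Timp1 (4.57 kb) lies between Syn1 exons, while Timp4 (10.3 kb) and Timp3 (49.1 kb) overlap annotated exons of Syn2 and Syn3.

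Promoter sequence was read for 8 of the 10 genes from RefSeq (GRCm38.p6), as 13 entries that each span 250 bases before a start and 50 after it. Syn3 and Syngr3 had no entry and were not searched. Syn1 is a textbook target of REST, the repressor that keeps neuronal genes silent outside the nervous system by binding the RE1 element. The 250 bases upstream were searched on both strands for the RE1 motif, 21 bases long with 3 of any base, and, separately, for TGACGTCA, the cyclic AMP response element; the matches did not overlap. Among the 13 entries, Syn1 alone had an RE1 match with at most 3 mismatches and alone had TGACGTCA. The Syn1 match had 1 mismatch and lay 232 to 212 bases upstream of the RefSeq start. Over all 32851 promoters, 0.0761% had a match with at most 3 mismatches, 0.0152% had one with at most 1 mismatch, and 1.55% had TGACGTCA. Both matches are in capitals in the stretch of the minus strand at chrX:20921005-20921168, which ends where the first GENCODE exon of Syn1 begins.
Syn1 upstream region: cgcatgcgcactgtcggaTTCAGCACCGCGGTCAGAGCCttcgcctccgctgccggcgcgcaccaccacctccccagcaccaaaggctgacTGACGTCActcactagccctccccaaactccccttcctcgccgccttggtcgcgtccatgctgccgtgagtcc
In these libraries Rest was low, at 2.38 TPM in replicate 1 and 2.64 in replicate 2. Its corepressors Rcor1, Rcor2 and Ehmt2 had 8.33 and 6.64, 10.1 and 11.2, and 72.7 and 69.1 TPM. Rcor2 was the 1 of these 4 genes over 1.2-fold apart between the libraries, at a log2 ratio of 0.31, against 21.1% of the 14715 genes.

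Listed partners of the vesicle genes were detected almost throughout, where 58.6% of nuclear protein-coding genes had at least 1 TPM in both libraries. All 18 other vesicle membrane and SV2-like genes reached 1 TPM in both libraries, with a median of 76.1 TPM. The vesicular glutamate transporter Slc17a7 was the highest at 710 and 672 TPM, and the small GTPase Rab27b the lowest at 9.20 and 9.03. Of these 18, 2 lay over 1.2-fold apart, against 21.1% of the 14715 genes, the share to set beside the lists below too. They were Rab3b (18.1 TPM in replicate 2 and 23.5 in replicate 1) and the vesicular zinc transporter Slc30a3 (29.9 in replicate 2 and 24.7 in replicate 1). Within the Rab3 family, Rab3a at 332 ± 27.2 TPM was above Rab3c at 74.7 ± 5.64, Rab3b at 20.8 ± 3.83 and Rab3d at 10.2 ± 0.580.

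All 12 listed regulators and effectors of Rab3 were detected, with a median of 36.4 TPM. Rab3il1, an exchange factor, was the lowest at 5.54 and 5.28 TPM. Rph3a, the effector rabphilin, was the 1 over 1.2-fold apart, at a log2 ratio of 0.28 after TMM scaling. Its deposited TPM, 88.3 in replicate 2 and 77.1 in replicate 1, lay under that mark. The 11 listed kinases, phosphatases and partners of synapsin had a median of 113 TPM. Camk2a, which phosphorylates synapsin I and frees it from vesicles, was the highest at 1561 TPM in replicate 2 and 1344 in replicate 1, a log2 ratio of 0.30 and the 1 of the 11 over 1.2-fold apart. Camk1 was the lowest, at 21.4 TPM in replicate 1 and 19.3 in replicate 2. Of the 7 listed relatives outside the neuronal vesicle 6 were detected, with a median of 10.2 TPM and Scamp3, a carrier membrane protein, highest at 32.8 and 31.4 TPM.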

How the data were processed

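Per the accompanying notes, the authors quantified both libraries against mm10 and GENCODE M21. The first deposited quantification, with the layout of RSEM output, gives expected counts, TPM, bounds of a TPM interval (another unit of the authors' own) and each transcript's percent of the gene's TPM. The second, with the layout of kallisto output, gives, per the file headers, estimated counts and TPM. The sources used here give no aligner, version or strand setting. The authors' TPM covers every entry of a table, ERCC spike-ins too.

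Expected counts were rounded to whole numbers for scaling and scaled by TMM (edgeR 4.0.16, R 4.3.3; DESeq2 1.42.0 as an alternative). Ratios used a prior count of 0.5 for genes averaging at least 1 TPM with 50 summed counts or more, exact binomial 95% intervals, and no test, since there is 1 group. The limit of detection was 3 counts. Quantifications were compared on log2(TPM + 0.1). Transcripts were named at 5% of a gene's TPM in either quantification. Words are 31-base stretches of annotated transcripts. From each gene list the highest, the lowest and those over 1.2-fold apart were named, and every gene of lists of at most 4. A gene that this rule names is not reported here. With 1 group of 2 libraries no gene could be named for a like pattern. The genes and lists were chosen with earlier results of these data known. The ratio code was tested on simulated data. mm10 is the C57BL/6J sequence; alleles were not analysed here. Python 3.11.15 was used.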

Additional observations from a re-analysis of the deposited data

How the results depend on the processing

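The median TPM of the 10 genes, 174.6, was 269.9 in the second quantification, 165.9 over protein-coding transcripts and 397 rescaled over nuclear protein-coding genes; it was 168.7 without replicate 1 and 180.6 without replicate 2. In the second quantification Syn1 over Syn3 was 13.9, Sv2a over Sv2b 1.01, Sv2a over Sv2c 31.1 and Syngr1 over Syngr3 3.23. Over protein-coding transcripts Syn1 over Syn2 was 0.979, Syn1 over Syn3 21.5, Sv2a over Sv2b 0.962, Sv2a over Sv2c 24.3 and Syngr1 over Syngr3 2.40. The median log2 ratio between libraries, -0.00995, was -0.11 with deposited TPM and no further scaling and -0.061 with spike-ins, when the median of all genes was -0.093 and -0.052. With DESeq2 size factors, a prior of 5, the second quantification or no filter it lay between -0.00995 and -0.0076. Under each of these 6 settings none of the 10 genes was over 1.2-fold apart. Genes over 2-fold apart between quantifications numbered 1 (Syngr1) and became 2 (Syn3 and Syngr1) without replicate 1, and 1 without replicate 2. The count of shared leading transcripts stayed at 7 when either replicate was left out. Leaving out a library or the filter cannot take a single-gene value outside the spread. Of 90 such values under the other alternatives, 41 stayed within the replicate or counting spread and 49 moved. The cause was not tested. Part of this tally was fixed in advance. Rescaling multiplies every TPM of a library by a common factor, and all 10 genes moved. A prior of 5 is small beside these counts, and all 10 ratios stayed. The tally is therefore no measure of robustness. No paired analysis was possible because the libraries form 1 group.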
